A study of Mus musculus with 12 samples.

Results

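The genes described here are the mouse collagens and laminins, the structural chains of the extracellular matrix. They were taken by symbol: protein-coding genes of the GENCODE M21 annotation named Col or Lam followed by a type number and a chain. This gave 56 of the 41091 gene IDs in each count table, made up of 44 collagen genes, 11 laminin genes and Col4a3bp. The last of these matches by its name only. It encodes the ceramide transfer protein, a lipid carrier inside the cell, and is counted apart from the collagens.

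Collagens are secreted or membrane proteins whose chains wind around each other as trimers. Fibrillar collagens such as types I and III give tissue its tensile strength, the fibril-associated collagens (FACITs) sit on those fibrils, and type IV collagen forms the sheet-like network of basement membranes. A laminin is a trimer of an alpha, a beta and a gamma chain, and it anchors cells to the basement membrane through integrins and dystroglycan. In the brain, basement membranes surround blood vessels and line the pial surface, and the tissue between neurons holds little fibrillar collagen.

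RNA-seq counts came from acute hippocampal mini-slices, with the dentate gyrus trimmed away, of wild-type C57BL/6 mice 2 to 3 months old. LTP slices received 50 uM forskolin, which activates adenylyl cyclase, for 5 min and then forskolin with 30 mM KCl and 10 mM calcium, 10 min in all, after 2 hr of recovery. Control slices received 0.2% DMSO for the same 10 min. RNA was taken at either 1 hr or 3 hr, so control and LTP slices at each time made 4 groups of 3 libraries, and each replicate number is an animal that gave both an LTP and a control library at that time point. The design asks which genes respond to LTP induction at each time, and whether the response differs between the times. No genetic change was made, so all groups share the wild-type background, and the slices hold vessels and glia as well as neurons.

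The libraries held between 37118382 and 50815001 counts, and the 56 genes together took between 0.0696% and 0.0841% of them. A floor of 3 counts was worth 0.0584 to 0.0792 CPM (the count scaled to library size by TMM), and that floor covers counting error only. The library 1 hr control replicate 2 had been set aside by the study as an outlier and was left out of every fit, so 11 libraries were compared unless stated. 2 further libraries, 1 hr LTP replicates 1 and 2, stood apart in some of these genes, and the values of Col6a3, Col23a1, Col6a5, Col25a1 and Lama3 are also given without them. Of the labelled tissue, 8 pyramidal neuron markers summed to 2785 to 4303 CPM and 5 dentate granule cell markers, of the region trimmed away, to 162.2 to 293.3 CPM in the compared libraries. These sums cannot be set against each other as amounts of tissue, since Camk2a alone held 1589 to 2632 CPM of the first. Prox1, of the dentate list, was at 45.9 to 79.8 CPM.

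The 2 leading type IV chains are neighbours on a chromosome. Col4a1 (chr8:11198423-11312826, minus strand) and Col4a2 (chr8:11312805-11449287, plus strand, both GRCm38) lie head to head and overlap by 22 bases at their starts, so the promoter window of each reaches into the other gene. RefSeq promoter windows (GRCm38.p6, 250 bases before to 50 after the start) were available for 41 of the 56 genes, counting Col4a3bp under its current name Cert1. The CCAAT letters, read on either strand, were in a window of 14 of these 41 genes and in 37.4% of all 32851 windows. Here and below the first number counts genes with a match in any window and the second counts windows, so the units differ. The stretches around this motif in the windows of both genes are shown because the 2 genes had similar levels in every library. The capitals mark the matches, which are separate sites, with the first base at position -32 from the start of Col4a2 and at -145 from that of Col4a1.

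Col4a2, chr8:11312761-11312790, plus strand: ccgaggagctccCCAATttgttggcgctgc

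Col4a1, chr8:11312954-11312983, minus strand: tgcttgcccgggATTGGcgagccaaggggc

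Forskolin acts through cyclic AMP, and the core of the cyclic AMP response element is TGACGT. These letters, read on either strand, were in a window of 3 of the 41 genes, Col11a2, Col24a1 and Lama5, and in 7.51% of all windows. Lama1, Col22a1 and Lama3 were among the 15 genes with no window and were not searched. The full palindrome TGACGTCA, which contains the core, was in 1 of the 41 (Col24a1) and in 1.79% of all windows. The stretch of Lama5 is shown as the laminin of these 3, with the core in capitals at position -49 from the start. A match describes the letters and no more.

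Lama5, chr2:180225891-180225920, minus strand: ctgggcggggccTGACGTcctcggacaggc

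Basement membrane chains were the most abundant of these genes in the slices. On a per-length scale (CPM per kb of exon, mean over the 11 libraries), Col4a1 stood at 11.01 ± 1.96 (SD, n = 11) and Col4a2 at 9.98 ± 1.94, with ranges of 8.11 to 14.0 and 7.70 to 13.9 that overlapped almost wholly. Col4a3bp followed at 9.90 ± 0.621. Next came Col25a1 at 8.67 ± 1.02, a transmembrane collagen of neurons known from amyloid plaques, whose range of 7.53 to 10.5 did not separate it from the 3 above.

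Lamc1, the common laminin gamma chain, stood at 7.49 ± 1.11 CPM per kb and Lamb1 at 6.46 ± 0.427. Col19a1, a FACIT made by hippocampal interneurons, had 5.21 ± 0.477 and Col11a2, a minor fibrillar chain, 4.72 ± 0.883. Lamb2, a beta chain of vessels and synapses, reached 3.68 ± 0.570 and Col9a3, a FACIT chain, 2.81 ± 0.592. The ranges of neighbours in this order overlapped over the libraries, which does not give their order within a library. Lamb2 (highest 4.48) lay below Lamb1 (lowest 5.89) in every library.

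Most of the other chains were scarce. 14 of the 56 genes reached 1 CPM per kb, 31 lay between 0.1 and 1 and 11 lay below 0.1, and the median was 0.458 against 2.94 over the 18102 protein-coding genes with a count. In all, 25% of the genes and 63.5% of protein-coding genes were at or above 1 CPM per kb. Col3a1 and Col1a1, the fibrillar chains of connective tissue, were at 0.0933 ± 0.0251 and 0.0795 ± 0.0487, and Col1a2 was at 0.218 ± 0.0473. Col17a1, a transmembrane collagen of skin, was lowest at 0.0162, with 1 to 8 counts a library, and was never tested.

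**Figure D1:**
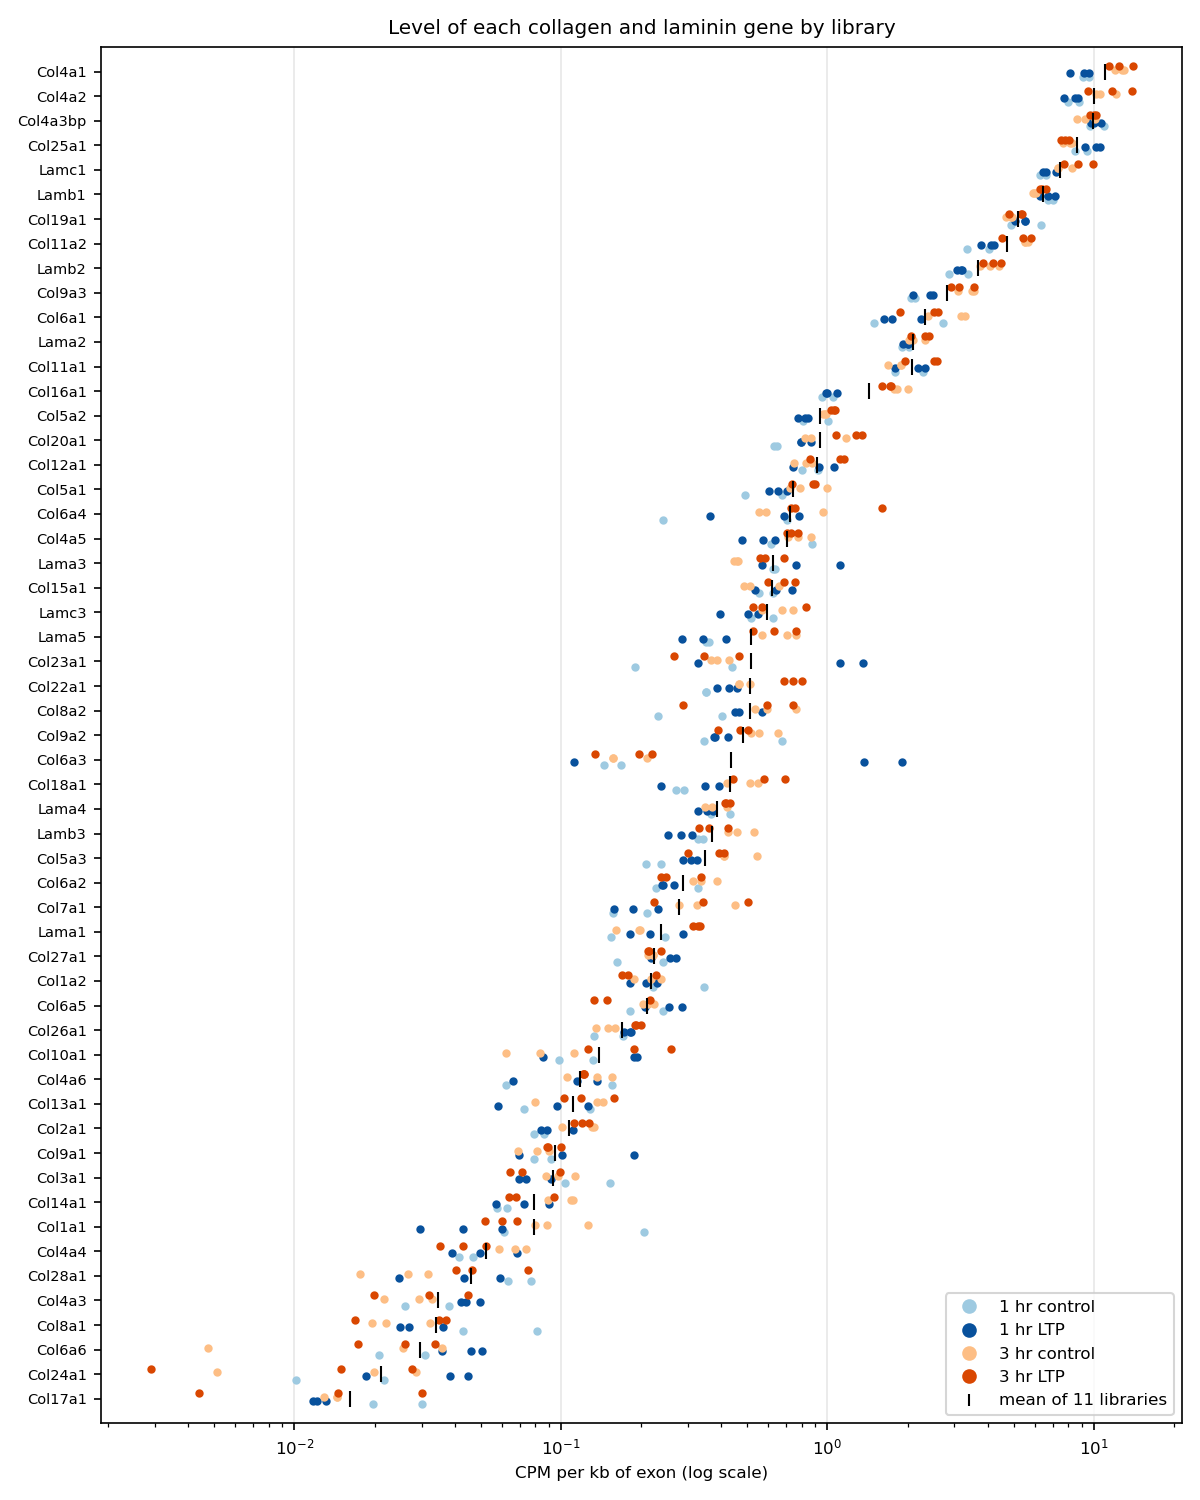
Level of each gene reported here in CPM per kb of exon (log axis) in the 11 compared libraries, coloured by group, with a tick at the mean. Col4a1 and Col4a2 lead at 11.01 and 9.98, and the fibrillar chains Col1a1 and Col3a1 lie under 0.1. Col6a3 and Col23a1 have 2 of the 1 hr LTP libraries far to the right of the others.

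The chains of a protein were present in unequal amounts. The ratio of Col4a1 to Col4a2 per length was 1.11 ± 0.0643 (SD, n = 11) and ranged from 1.01 to 1.21, so these divergently transcribed neighbours kept nearly equal levels. Together they made up 95.8% ± 0.729 of the type IV total, and Col4a5, Col4a6, Col4a4 and Col4a3 (at 0.705, 0.118, 0.0523 and 0.0346 CPM per kb) made up the rest. The summed laminin alpha level was 3.87 ± 0.366 CPM per kb, below the beta sum of 10.5 ± 0.475 and the gamma sum of 8.28 ± 1.21 in every library. Lama2, the alpha chain of astrocytic and vascular laminin, was 54.4% ± 2.77 of the alpha sum, Lamb1 61.6% ± 4.82 of the beta sum and Lamc1 90.5% ± 1.11 of the gamma sum. Of the other alpha chains, Lama3 stood at 0.627, Lama5 at 0.519, Lama4 at 0.386 and Lama1 at 0.238 CPM per kb, and Lamc3 and Lamb3 at 0.591 and 0.368. All these levels are of RNA in whole slices, where fewer cells of a type and less RNA per cell cannot be told apart.

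Several other members lie side by side on a chromosome. Col4a4 and Col4a3 are head to head with 71 bases between them, and Col4a6 and Col4a5 with 1308. Col9a1 and Col19a1, and Col3a1 and Col5a2, end toward each other. Col6a2 and Col6a1, Col6a6 and Col6a5, and Col6a5 and Col6a4 follow each other on the same strand. Sharing a neighbourhood did not give similar levels in general, since Col19a1 (5.21) stood far above Col9a1 (0.0952) and Col5a2 (0.942) above Col3a1 (0.0933). Exonic bases were shared with another gene in 17 of the 56, at most 6.27% of the length (Lamc3), and since strand use in the counting is not stated these values carry that much uncertainty.

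At 1 hr after induction no collagen or laminin passed the test. With edgeR's quasi-likelihood test, 0 of the 55 tested genes were called, which asks for an adjusted p below 0.1 and more than a 1.2-fold change, and 0.789% of all genes were. DESeq2 and limma-voom also called 0, and 7 had an unadjusted p under 0.05, 4 higher and 3 lower in LTP. For comparison with these 7 of 55, 1190 of the 17736 genes tested fell below that cut. The median log2 fold change was 0.09 against 0.00 over all genes.

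The smallest p at 1 hr belonged to Col6a3 (ENSMUSG00000048126.11, chr1:90765923-90843971), a chain of the beaded filaments of type VI collagen. Its levels in 1 hr LTP replicates 1, 2 and 3 were 22.8, 16.4 and 1.34 CPM, against 2.02 and 1.73 in the compared control libraries and 2.17 in the one set aside. Replicates 1 and 2 thus stood far above all other libraries, of which the highest had 2.64, and replicate 3 was below the controls. The log2 fold change was 2.86 (SE 0.731, adjusted p = 0.152). With the replicate block on the 5 compared libraries, where the unpaired 1 hr LTP replicate 2 carries no weight, it was called at 2.18 (adjusted p = 0.044), and with the block on all 6 it was at 2.34 (adjusted p = 0.133). It was also called without 1 hr LTP replicate 3 at 3.40 (adjusted p = 3.95e-10), with 1 hr control replicate 2 included at 2.78 (adjusted p = 0.0614), without the filter on low counts at 2.86 (adjusted p = 5.97e-63) and with the block and the GC and length offsets at 2.13 (adjusted p = 1.04e-34). The SE was 0.166 in the last 2 of these, against 0.731. Without replicates 1 and 2, left out because they were high, the value was -0.48, which rests on 1 LTP library and is given with no test.

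Col23a1, a transmembrane collagen, followed the same libraries. It had 7.80, 6.38 and 1.88 CPM in 1 hr LTP replicates 1, 2 and 3 and 2.51 and 1.09 in the controls, and no other library exceeded 2.68. Its log2 fold change was 1.59 (SE 0.460, adjusted p = 0.269), called with the block on the 5 libraries at 1.33 (adjusted p = 0.00301), with the block on all 6 at 1.35 (adjusted p = 0.0119), with the block and offsets at 1.29 (adjusted p = 4.22e-08), without the filter at 1.59 (adjusted p = 1.27e-12) and without 1 hr LTP replicate 3 at 2.00 (adjusted p = 0.000128). Within animals, LTP was above control in 3 of 3, by 1.60, 1.40 and 0.74 on the log2 scale, with the set-aside control used for animal 2. Without 1 hr LTP replicates 1 and 2 the value was 0.08, again from 1 LTP library and with no test. In the same 2 libraries the choroid plexus markers Clic6 (1.58 and 2.11 CPM) and Otx2 (1.31 and 1.24) were above the other 10 libraries, whose highest values were 0.491 and 1.06, while Ttr, the most abundant transcript of that tissue, was at 1.05 and 1.45 CPM against 0 to 2.22 elsewhere. The sum of the 10 choroid plexus markers was 29.8 to 31.8 CPM in the 1 hr LTP libraries and 28.4 to 31.9 in the 1 hr controls, but Kl alone held 21.5 to 28.4 CPM of it, and Aqp1 and F5 in replicates 1 and 2 lay within the range of the other libraries. The sum of the 6 ependymal markers was 23.1 to 25.9 CPM in the 1 hr LTP libraries, replicate 3 included, 15.9 to 18.3 in the 1 hr controls and 14.9 to 23.5 in the 3 hr libraries. The part of either cell type in the Col6a3 and Col23a1 values was not tested.

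Among the other genes with small p at 1 hr, the fibrillar chain Col1a1 had 1.34 and 0.403 CPM in the controls and 0.194, 0.396 and 0.282 in LTP (log2 fold change -1.56, SE 0.516, adjusted p = 0.433). It was called lower with the replicate block and the GC and length offsets (-1.76, adjusted p = 0.0457) and without the filter on low counts (-1.57, adjusted p = 0.0257). Within animals the log2 differences were -2.29, -0.16 and -0.40, so 1 control library carries most of the difference. The same library, 1 hr control replicate 1, had the highest sum of the 10 fibroblast and meningeal markers, 60.7 CPM against 31.9 to 46.4 in the other compared libraries, with Dcn at 24.3 CPM. The part of such cells in the value was not tested.

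**Figure D2:**
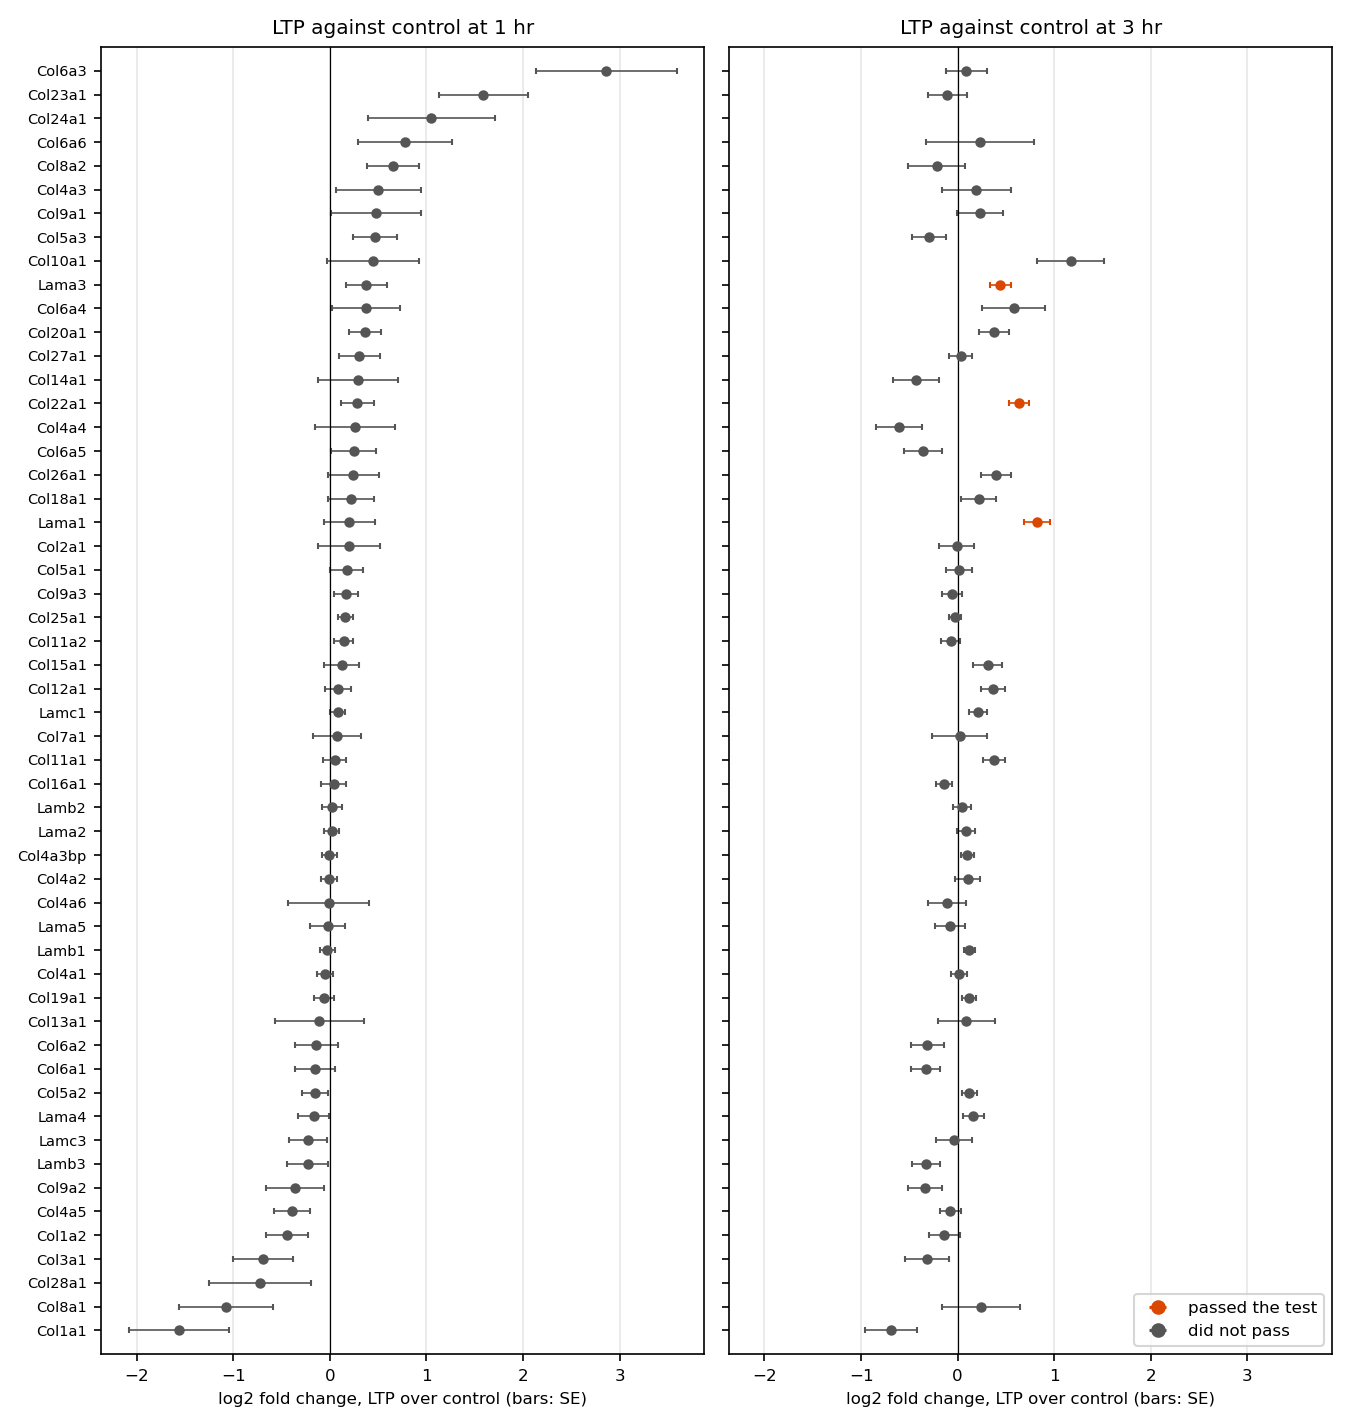
Log2 fold change of LTP over control with its SE for the tested genes reported here at 1 hr (left) and 3 hr (right), in the order of the 1 hr values, with genes that passed the test in orange. None passed at 1 hr, and Lama1, Col22a1 and Lama3 passed at 3 hr.

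At 3 hr 2 laminin alpha chains and a fibril-associated collagen were higher in LTP slices. 3 of the 53 tested genes (5.66%) were called, all of them higher, against 6.6% of all genes in either direction and 5.07% higher, so the share was near that of the transcriptome. The median log2 fold change was 0.03 against 0.00 over all genes. Col24a1 and Col28a1 fell under the filter on low counts in these libraries, as did Col17a1. LTP and control libraries share animals, and with the replicate block 8 genes were called, 7 higher and 1 lower, where the block called 9.49% of all genes. The 5 added were Col6a4 (0.53, adjusted p = 0.0261), Col11a1 (0.37), Col12a1 (0.36), Col20a1 (0.39) and, lower, Col6a1 (-0.33, adjusted p = 0.0413), all as log2 fold changes. With GC and length offsets beside the block 7 were called.

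Lama1 (ENSMUSG00000032796.7, chr17:67697259-67822647) encodes the alpha chain of a laminin known from early embryonic basement membranes and the pial surface. Its levels were 3.05, 3.21 and 3.17 CPM in the 3 hr LTP libraries and 1.56, 1.92 and 1.91 in the 3 hr controls. The groups did not overlap, so under any pairing LTP was higher in 3 of 3 animals. The mean rose from 1.79 ± 0.205 to 3.14 ± 0.0851 CPM (SD, n = 3 each), a log2 fold change of 0.82 (SE 0.137, adjusted p = 0.0183). The call held in all 15 alternatives, with values from 0.73 to 0.87.

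Col22a1 (ENSMUSG00000079022.4, chr15:71795795-72034227) encodes a fibril-associated collagen known from tissue junctions. It had 6.32, 6.86 and 7.36 CPM in LTP and 4.31, 4.29 and 4.73 in control libraries at 3 hr. These groups did not overlap either, so LTP was again above control in 3 of 3 animals, with means of 6.85 ± 0.522 and 4.44 ± 0.249 CPM. The log2 fold change was 0.63 (SE 0.103, adjusted p = 0.0161), and without 3 hr control replicate 2 the adjusted p was 0.101. At 1 hr the same gene had 3.94, 4.22 and 3.55 CPM in LTP and 3.23 and 3.22 in control libraries, which did not pass.

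Lama3 (ENSMUSG00000024421.11), the alpha chain of the main epithelial laminin, had 6.00, 7.41 and 6.28 CPM in 3 hr LTP and 4.91, 4.95 and 4.79 in 3 hr control libraries. The groups did not overlap, but the 1 hr libraries (6.82 and 6.71 in controls, 8.21, 11.97 and 6.09 in LTP) all lay above the 3 hr controls. The log2 fold change at 3 hr was 0.44 (SE 0.107, adjusted p = 0.0598). The call was lost in 6 of 15 alternatives, namely with GC and length offsets (adjusted p = 0.118), in a model of the 4 groups (0.201), lacking any 1 of the 3 hr controls (0.166 to 0.227) and lacking 3 hr LTP replicate 1 (0.125). Its beta partner in that laminin, Lamb3, did not pass at -0.33 (adjusted p = 0.257).

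Just outside the threshold were Col11a1, a minor fibrillar chain, and Col10a1, a network collagen of cartilage. Col11a1 had 32.1, 24.9 and 32.8 CPM in LTP and 21.6, 24.0 and 24.0 in control libraries (0.38, SE 0.113, adjusted p = 0.105). Col10a1 was close to the floor at 0.591, 0.813 and 0.396 CPM against 0.195, 0.261 and 0.350 (1.17, SE 0.347, adjusted p = 0.105), and it passed with GC and length offsets (1.19, adjusted p = 0.0687). The abundant chains moved little, with Col4a1 at 0.02 (SE 0.0814), Col4a2 at 0.10 (SE 0.130), Lamb1 at 0.12 (SE 0.0573) and Lamc1 at 0.21 (SE 0.0972), none of which passed. The count moved with single libraries, as did the share of all genes called. Leaving out 3 hr control replicate 2 gave 1 (1.28% of all genes), leaving out LTP replicate 2 at 3 hr gave 7 (12.2%) and leaving out replicate 3 gave 5 (7.45%).

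**Figure D3:**
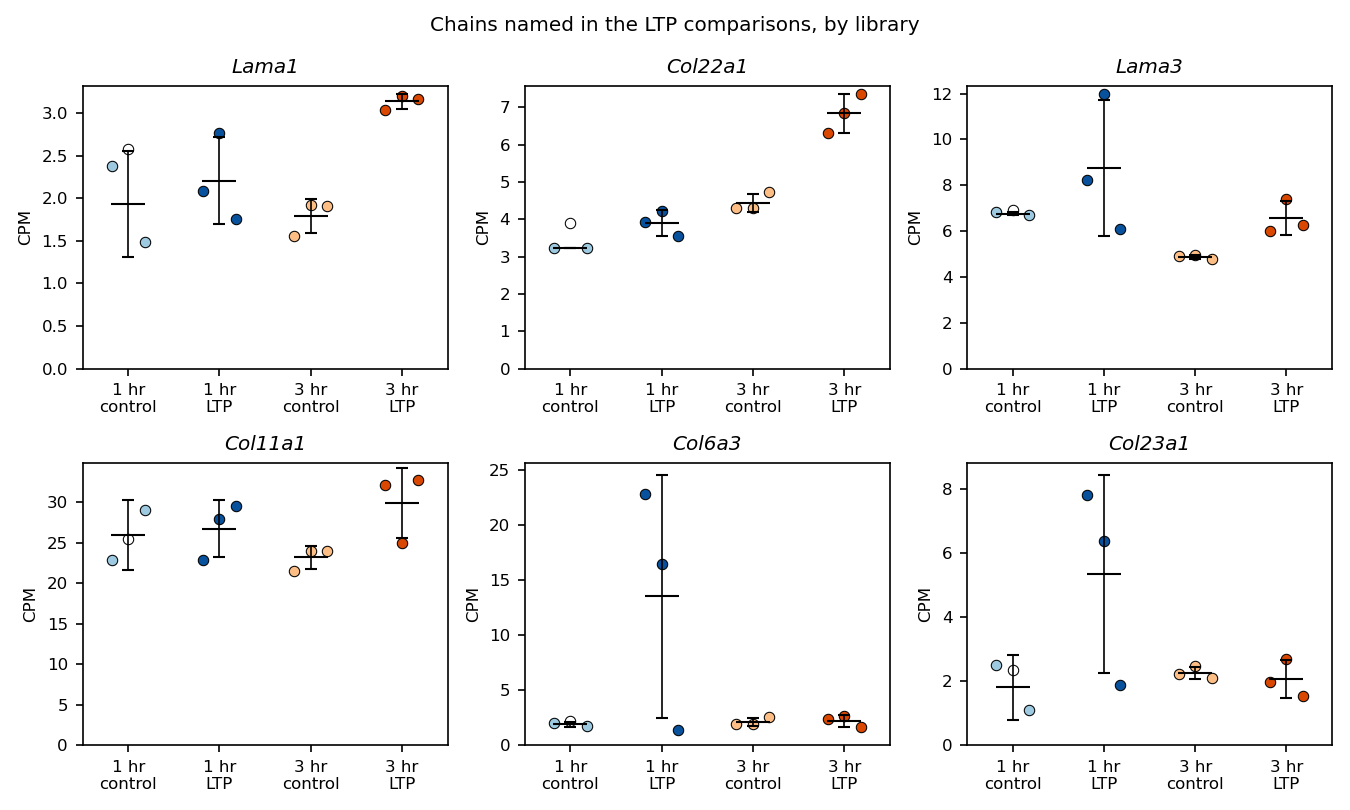
CPM by library for 6 chains named in the LTP comparisons, with the mean and SD of the compared libraries of each group. The open circle is 1 hr control replicate 2, left out of the mean. The 3 hr LTP libraries of Lama1 (3.05 to 3.21) and Col22a1 (6.32 to 7.36) lie above all other libraries, and Col6a3 and Col23a1 are high in 1 hr LTP replicates 1 and 2 alone.

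The LTP effect itself was compared between the time points as an interaction in a model of the 4 groups. With edgeR 0 of 55 genes passed, DESeq2 and limma-voom also called 0, and 0.0592% of all genes passed. 5 had an unadjusted p under 0.05, 1 with a positive difference (3 hr minus 1 hr) and 4 with a negative one. Beside these 5 of 55, 1225 of the 18584 genes tested fell below that cut. The smallest p was that of Col5a3, a fibrillar chain, whose LTP effect was lower at 3 hr by 0.76 on the log2 scale (SE 0.262, adjusted p = 0.584). For Lama1 the difference was 0.62 (SE 0.299, adjusted p = 0.770), so the effects at the times were not shown to differ. Col6a3 passed (-3.29, adjusted p = 0.00126) where 1 hr LTP replicate 3 was left out.

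The time after treatment went with more of these genes than LTP did. Between 3 hr and 1 hr in control slices, 20 of 55 genes (36.4%) were called against 32.8% of all genes. Of these 17 were higher at 3 hr (30.9%, against 16.1% of all genes) and 3 lower (5.45%, against 16.8%). In LTP slices 22 of 55 (40%) were called against 35.9% of all genes, 17 higher (30.9%, against 18.6%) and 5 lower (9.09%, against 17.3%). The median log2 fold change was 0.15 in controls and 0.18 in LTP slices, where the medians over all genes were -0.02 and 0.00. The sources do not state whether the same animals served both time points, so time cannot be told apart from differences between animals or preparations.

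14 genes were called in the same direction in both time comparisons, 70% of those called in controls and 63.6% of those called in LTP slices, and 40 of 55 (72.7%) had the same sign. Over all genes the shares were 71% and 64.9%, with the same sign in 80.5%, and control and LTP slices share animals. Those higher at 3 hr in both were Lama5, Lamb2 and Lamb3 of the laminins, Col4a1 and Col4a2 of type IV, the FACITs Col9a3, Col16a1, Col20a1 and Col22a1, the fibrillar chains Col5a1 and Col11a2, the multiplexin Col18a1 and Col7a1 of anchoring fibrils. Lama3 was lower in both, though without 1 hr LTP replicates 1 and 2 it stood at 0.11 in LTP slices. Col5a3, Col14a1 and Col8a2 (higher) and Col8a1 and Col28a1 (lower) were among those called in controls alone, and Col5a2, Lamc1, Col4a5 and Lama1 (higher) and Col6a3, Col25a1, Col23a1 and Col6a5 (lower) in LTP slices alone. None of these passed the test of the difference itself.

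The set-aside library bears on these rises. In all 13 genes higher in both comparisons, 1 hr control replicate 2 was above both other 1 hr controls, and in 11 of them it was at or above the lowest 3 hr library. The like shares over all genes were not counted. Beyond these genes too, this library stood apart from the other 1 hr controls. The chi-square per degree of freedom across genes was 47.0 and 63.3 against them, and 10.2 between them. Col4a1 had 91.6 CPM in 1 hr control replicate 2, where the other 1 hr controls had 68.1 and 71.4 and the 3 hr controls 89.8, 95.0 and 97.0. With that library included, 13 genes were called in controls in place of 20, and 27.4% of all genes in place of 32.8%. Without 1 hr control replicate 3 the count was 12, with 21.9% of all genes.

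The rises at 3 hr also followed base composition. These genes are GC-rich and long: the median GC content of their exons was 54.0% against 49.5% over all genes tested, and the median exonic length 8039 bases against 3781. Across the 55 genes, GC content and the log2 fold change between times had a Spearman rho of 0.598 in controls and 0.487 in LTP slices, against 0.425 and 0.403 across all genes. For LTP against control the rho was 0.019 at 1 hr and -0.264 at 3 hr. Genes share libraries and are not independent, so these only describe the fits. The median GC content was 59.1% in the 17 genes called higher in controls and 49.5% in the 3 called lower.

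With offsets per library for GC content and length fewer genes were called, among these and among all genes. 11 genes were called in controls, 6 higher and 5 lower, and 10 in LTP slices, 4 higher and 6 lower, where 24.9% and 27% of all genes were called. Over all genes 2188 were then higher and 2442 lower in controls, and 2494 higher and 2527 lower in LTP slices, against 2987 and 3115, and 3460 and 3216, without the offsets. The rho over the 55 genes became 0.247 and 0.06. Among those higher in controls were then Lama5, Col5a3, Col16a1, Col22a1 and Col9a3, and higher in LTP slices Col22a1, Lama5, Col20a1 and Col5a2. Col22a1 and Lama5 were thus higher at 3 hr in both kinds of slice with either treatment of GC content, and Lama3 lower. Whether the GC trend is technical was not tested.

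**Figure D4:**
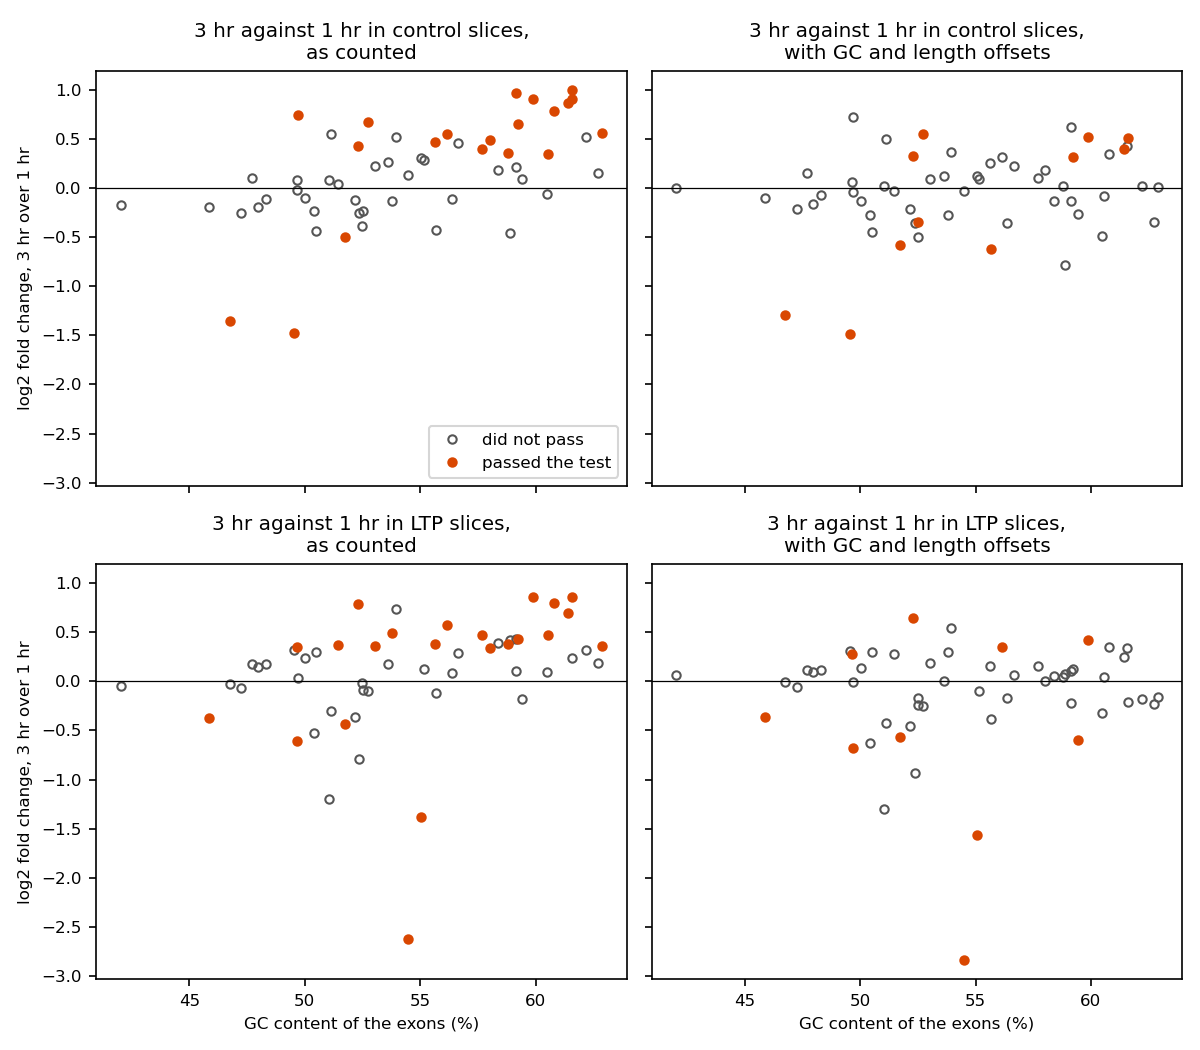
Log2 fold change between 3 hr and 1 hr against the GC content of the exons for the 55 tested genes, in control slices (top) and LTP slices (bottom), as counted (left) and with GC and length offsets (right). Orange points passed the test. The upward slope on the left (rho 0.598 and 0.487) is smaller on the right (0.247 and 0.06).

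Col16a1, a FACIT, had the smallest p of the time comparisons. Its levels were 7.08 and 6.47 CPM in 1 hr control, 6.71, 6.67 and 7.34 in 1 hr LTP, 12.4, 11.98 and 13.5 in 3 hr control and 11.6, 10.8 and 11.7 in 3 hr LTP libraries. No 3 hr library overlapped the compared 1 hr libraries, but 1 hr control replicate 2, at 11.3 CPM, sat among them. The log2 fold changes were 0.87 (SE 0.102, adjusted p = 8.86e-05) in controls and 0.70 (SE 0.0902, adjusted p = 0.000114) in LTP slices, and 0.40 (adjusted p = 0.0112) and 0.25 (adjusted p = 0.0524) with the offsets. The last of these missed the call through its fold change.

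Col4a1 and Col4a2 moved as a pair. Col4a1 had 68.7, 60.5 and 71.6 CPM in 1 hr LTP and 92.7, 85.0 and 104.6 in 3 hr LTP libraries, and Col4a2 had 56.2, 50.96 and 57.8 against 77.7, 62.8 and 91.8. Neither overlapped between the times in LTP slices. The log2 fold changes of Col4a1 were 0.40 (SE 0.0926, adjusted p = 0.00565) in controls and 0.47 (SE 0.0823, adjusted p = 0.000767) in LTP slices, and those of Col4a2 were 0.35 (adjusted p = 0.0533) and 0.48 (adjusted p = 0.006). With the offsets neither was called, at 0.10 (adjusted p = 0.199) and 0.15 (adjusted p = 0.0336, under the fold change minimum) for Col4a1 and -0.08 and 0.05 for Col4a2.

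Lama5, the alpha chain of mature vascular laminin, had 3.98 and 4.10 CPM in 1 hr control and 6.45, 8.04 and 8.72 in 3 hr control libraries. In LTP slices it had 4.74, 3.88 and 3.25 at 1 hr and 7.18, 6.00 and 8.68 at 3 hr, again without overlap. The log2 fold changes were 0.91 (SE 0.188, adjusted p = 0.003) and 0.86 (SE 0.167, adjusted p = 0.0015), and 0.52 and 0.42 with the offsets, both still called. It was called in every alternative of both comparisons.

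Col22a1 was called higher with LTP at 3 hr and in both time comparisons, and Lama1 with LTP at 3 hr and with time in LTP slices. The time value of Lama1 was 0.49 (adjusted p = 0.0611), and the call was lost with the offsets (0.30, adjusted p = 0.268). From 1 hr to 3 hr the mean of Col22a1 went from 3.23 ± 0.00488 (n = 2) to 4.44 ± 0.249 CPM (n = 3) in controls and from 3.90 ± 0.336 to 6.85 ± 0.522 CPM (n = 3 each) in LTP slices. The log2 fold changes were 0.43 (SE 0.130, adjusted p = 0.0223) and 0.79 (SE 0.112, adjusted p = 0.000195), and the comparisons share the 3 hr libraries with the LTP comparison. The rise was called in every alternative of both time comparisons.

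Col9a3 went from 7.96 and 8.20 CPM in 1 hr control to 11.9, 13.6 and 13.4 in 3 hr control libraries (0.65, SE 0.116, adjusted p = 0.00119), and from 9.36, 9.58 and 8.09 to 13.7, 11.2 and 12.1 in LTP libraries (0.43, SE 0.102, adjusted p = 0.00503). Col11a2 went from 22.9 and 27.7 to 38.0, 38.0 and 38.8 CPM in controls (0.57, SE 0.112, adjusted p = 0.00224) and from 25.9, 28.3 and 29.1 to 39.9, 31.0 and 37.2 in LTP slices (0.36, SE 0.0989, adjusted p = 0.0121). No compared library of these chains crossed between the times. With the offsets Col9a3 was at 0.31 (adjusted p = 0.071) in controls, still called, and at 0.12 (adjusted p = 0.417) in LTP slices, not called. Col11a2, the most GC-rich member at 62.9%, was at 0.02 and -0.16 with the offsets.

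Col5a3 differed in how its groups lay. Controls had 1.42 and 1.61 CPM at 1 hr and 2.79, 2.79 and 3.70 at 3 hr (1.00, SE 0.198, adjusted p = 0.00232). LTP slices had 2.09, 2.22 and 1.95 at 1 hr and 2.05, 2.66 and 2.80 at 3 hr, which overlap and were not called.

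Col25a1 went the other way. It fell from 136.0, 131.7 and 119.8 CPM in 1 hr LTP to 100.9, 104.8 and 97.5 in 3 hr LTP libraries, without overlap (-0.37, SE 0.0657, adjusted p = 0.000835), and the offsets left it at -0.37. Without 1 hr LTP replicates 1 and 2, which are the highest 2 and whose loss leaves 1 library, the value was -0.24. In controls it had 109.9 and 122.5 CPM at 1 hr and 105.6, 107.2 and 98.8 at 3 hr (-0.19, SE 0.0731, adjusted p = 0.0619), a difference under the fold change minimum. At a GC content of 45.9% it is also among the less GC-rich of these genes.

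**Figure D5:**
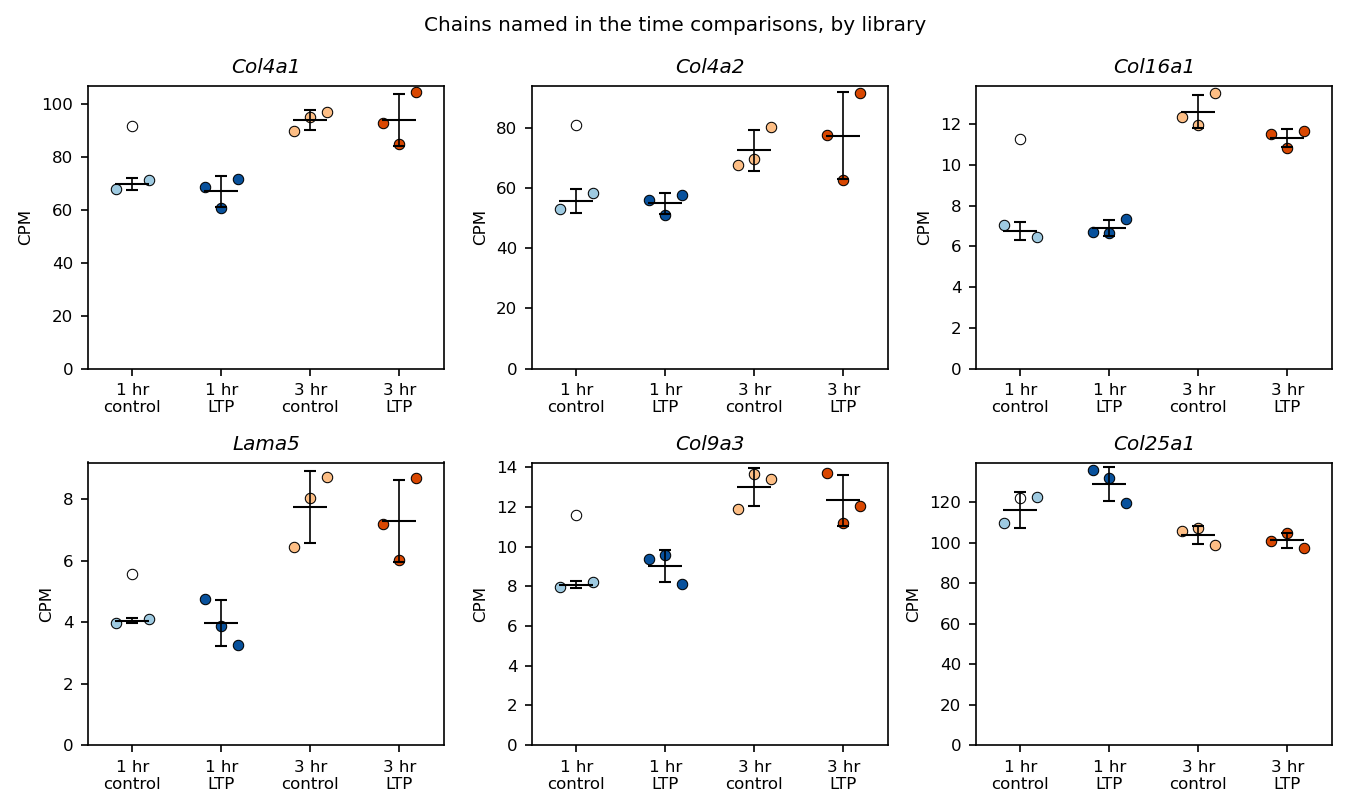
CPM by library for 6 chains named in the time comparisons, with the mean and SD of the compared libraries of each group. The open circle is 1 hr control replicate 2, which lies among the 3 hr libraries for Col4a1 (91.6) and Col16a1 (11.3). The first 5 chains are higher at 3 hr, and Col25a1 is lower at 3 hr in LTP slices.

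By protein class, the time comparisons called chains in most classes. The summed type IV level went from 18.7 ± 0.659 CPM per kb in 1 hr control (n = 2) and 18.04 ± 1.41 in 1 hr LTP to 24.6 ± 1.43 in 3 hr control and 25.2 ± 3.52 in 3 hr LTP libraries (n = 3 each), and 2 and 3 of its 6 chains were called higher in controls and LTP slices. The 9 FACITs held 5 and 4 called higher, and the 11 fibrillar chains 3 and 3. Over all genes 16.1% and 18.6% were called higher, and with the offsets 11.8% and 13.4%, where 6 and 4 of the 55 tested chains were. None of the 6 type VI chains was called in controls, and Col6a3 and Col6a5 were called lower in LTP slices. Without 1 hr LTP replicates 1 and 2, which leaves 1 library there, the values were 0.72 and -0.33, with no test. Of the laminins, 4 chains were called higher and 1 lower in controls, and 5 higher and 1 lower in LTP slices. The gamma sum was 7.15 ± 0.297, 7.43 ± 0.442, 8.55 ± 0.641 and 9.60 ± 1.26 CPM per kb in control then LTP slices at 1 hr and control then LTP slices at 3 hr, where the beta sum stayed between 9.68 and 11.45.

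Among the single laminin chains, Lamc1 stood at 0.22 (adjusted p = 0.106) in controls and rose by 0.36 (adjusted p = 0.00645) in LTP slices, on the log2 scale between the times. With the offsets Lamc1 was at 0.10 in controls and 0.19 (adjusted p = 0.0233, under the fold change minimum) in LTP slices, and was not called. Lamb2 rose by 0.36 (adjusted p = 0.0174) and 0.39 (adjusted p = 0.00511), but with the offsets it was at 0.02 and 0.04 and was not called. Lamb1 went down by less than the fold change minimum in controls (-0.24, adjusted p = 0.0191) and stood at -0.08 (adjusted p = 0.310) in LTP slices. With the offsets Lamb1 was called lower in controls (-0.34, adjusted p = 0.00117) and was at -0.24 in LTP slices, under the fold change minimum. Lama2 and Lama4, the other vascular alpha chains, were at 0.10 and -0.10 in controls and 0.17 and 0.24 in LTP slices and did not pass. Lamc3 did not pass in either.

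The proteins that work with these chains were read from 3 lists. Over all genes tested, 6.6% were called with LTP at 3 hr, and with time 16.1% were higher and 16.8% lower in controls and 18.6% higher and 17.3% lower in LTP slices. Of 20 other basement membrane genes (nidogens, perlecan, agrin and others), 0 were called at 1 hr and 1 at 3 hr of LTP, Fras1, which links epithelia to their basement membrane (0.35, SE 0.0950, adjusted p = 0.0825). With time, 6 were higher and 3 lower in controls and 10 higher and 0 lower in LTP slices, led in size by Hspg2, the perlecan core protein (1.07, adjusted p = 0.0431, and 1.26, adjusted p = 0.00943). With the offsets these counts were 2 higher and 3 lower in each, and Fras1 was not called.

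Of 29 tested genes of collagen synthesis and processing, 0 were called at either time of LTP, and with the offsets 0 at 1 hr and 1, higher, at 3 hr. With time, 10 were higher and 1 lower in controls and 8 higher and 0 lower in LTP slices, among them P3h1, a prolyl hydroxylase (0.69 and 0.53), and Lox, which crosslinks collagen (1.04 and 0.71). With the offsets 3 higher and 1 lower remained in number in controls and 3 and 0 in LTP slices. As counted, 11 of the 29 in controls and 8 in LTP slices were called in either direction, beside 32.8% and 35.9% of all genes. Serpinh1, the collagen chaperone, stood at -0.01 and 0.02. Of 15 tested receptors, 1 was called higher with LTP at 3 hr, Itga10, an integrin alpha chain that binds collagen (0.57, SE 0.147, adjusted p = 0.0740), and 0 at 1 hr. With time, 5 receptors were higher and 2 lower in controls and 6 higher and 1 lower in LTP slices, and with the offsets 1 and 2 in controls and 2 and 2 in LTP slices. Dag1, which encodes dystroglycan, was at -0.02 and 0.10 with LTP at 1 hr and 3 hr.

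Cell types of the slices were read from marker lists, vascular cells first. The 10 endothelial markers summed to 150.9 to 155.6 CPM in 1 hr control, 126.7 to 136 in 1 hr LTP, 119.6 to 124.8 in 3 hr control and 120.2 to 138.2 in 3 hr LTP libraries. The 10 mural cell markers summed to 211.1 to 214, 180.3 to 198.8, 154 to 161.3 and 156.1 to 160.2 CPM in the same order. No marker of either list was at 0 in all libraries. Between the times in controls, 0 endothelial markers were called higher and 5 lower and 0 mural markers higher and 7 lower (Acta2 at -0.98, adjusted p = 0.000184), the opposite sign to Col4a1 and Col4a2 as counted. With the offsets these marker counts in controls were the same, but Col4a1 (0.10) and Col4a2 (-0.08) were then not called in controls. In LTP slices 4 endothelial markers were higher and 3 lower, and 1 mural marker was higher and 3 lower. The shares of all genes given above, 16.8% and 17.3% lower and 16.1% and 18.6% higher, stand beside these counts and the next, and no list was compared with them by a test. Of 8 microglial markers 0 were called higher and 5 lower in each time comparison, of 10 fibroblast and meningeal markers 0 higher and 4 lower in controls and 0 higher and 3 lower in LTP slices, and of 8 oligodendrocyte markers 3 were higher in each and 0 and 1 lower. With LTP at 1 hr 1 mural marker, Myh11, was called lower (-0.68, adjusted p = 0.0465) and 1 ependymal marker, Ccdc153, higher (0.81, adjusted p = 0.0512), and with LTP at 3 hr no marker of either vascular list was called. The part of cell make-up in the chain values was not tested.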

How the data were processed

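RNA-seq counts of 12 libraries in 4 groups were analysed. The authors made stranded libraries after removal of ribosomal RNA, mapped them with STAR (mouse build GRCm38) and obtained counts for each gene in R. The deposited counts are raw, in 1 table per time point, and strand use is not stated. Of the 41091 gene IDs, 40217 matched GENCODE M21 and 874 did not, and the latter stayed in library sizes. The members and lists were chosen with earlier results of these data known.

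Main tests were made with edgeR 4.0.16 in R 4.3.3 (quasi-likelihood, filterByExpr, TMM, Benjamini-Hochberg over all genes), calling genes with an adjusted p below 0.1 and more than a 1.2-fold change, except the interaction (no fold minimum). LTP was fitted per time point. Time and interaction used 1 model of 11 libraries, without 1 hr control replicate 2. Alternatives were DESeq2 1.42.0, limma-voom (limma 3.58.1), other size factors and filters (1 count in all, or 10 in every library), a replicate block, GC and length offsets (splines with 5 df), and leaving out each library. The fits were also run on simulated counts with known changes, whose outcome is not reported here. CPM values are TMM-scaled. Per-length levels divide CPM by exonic length. Likeness to Col6a3 used log2 values with a pseudocount of 0.1 CPM.

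The numbers pair LTP and control libraries of the same animal at a time point, as the study's methods state. The correlations of their deviations across genes were -0.01, -0.24 and 0.078 at 1 hr and 0.067, 0.005 and 0.293 at 3 hr. Of the control libraries, only 3 hr control replicate 3 correlated best with the LTP library of its own number. Replicates of a group differed beyond counting error (chi-square per degree of freedom 9.49 to 85.6). They were separate animals, whose origin across time points is not stated.

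Genes named with values were those called, the 10 highest levels, the smallest p per comparison and the laminin chains, with values per library for genes called with LTP and the 8 smallest p over time. Genes near a threshold or high in the same libraries as Col6a3 were chosen after their values were seen. Sequences come from RefSeq promoter windows. The tool matplotlib drew the figures. Some genes counted in the totals are not reported here by name.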

Additional observations from a re-analysis of the deposited data

Results flagged for a closer look

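1 hr control replicate 2 entered no comparison, and 12 of the 56 genes were higher there than in all 11 compared libraries. These were Lamb1 (73.7 CPM), Col6a1 (19.0), Col5a2 (10.7), Col5a1 (9.15), Col15a1 (5.09), Col27a1 (3.72), Col6a2 (3.60), Col9a2 (2.24), Col26a1 (2.19), Col14a1 (0.848), Col28a1 (0.600) and Col17a1 (0.207). The largest margin in an abundant gene was that of Col6a1, a type VI chain, whose highest compared library had 14.4 CPM, and Lamb1 exceeded its highest compared library (71.0) only slightly. 1 gene was lower there than in all 11. The like shares of all genes were not counted.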

How the results depend on the processing

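At 1 hr, 0 called genes became 3 without a filter beyond 1 count, 1 with 1 hr control replicate 2 included, 2 with the replicate block on 5 libraries, 1 with the block on all 6 and 3 with the block and offsets. Leaving out a library gave 0 to 2. At 3 hr, 3 became 5 with DESeq2, 5 without the filter, 8 with the replicate block (9.49% of all genes) and 7 with the block and offsets (9.5%), and 1 to 7 when a library was left out. The time calls in controls, 20, became 11 with GC and length offsets and 13 with 1 hr control replicate 2 included, and 12 to 21 when a library was left out. Those in LTP slices, 22, became 10 with the offsets and 11 without 1 hr LTP replicates 1 and 2 (chosen after seeing the data), and 18 to 22 when a library was left out. The interaction's 0 became 2 without the filter and 0 to 1 when a library was left out. The replicate block changed no other call count by over 1.5 times. Leaving out both 1 hr LTP replicates 1 and 2 leaves 1 library in the arm, assumed to vary like the other groups, and the libraries left out were chosen for their high Col6a3, so its values and its count of 11 are no test. There Col6a3 turned to -0.48 at 1 hr and to 0.72 with time, Lama3 to 0.11 and Col23a1 to 0.14 with time in LTP slices. With the offsets Col4a2 turned to -0.08 in controls and Col11a2 to -0.16 in LTP slices. For the called genes of each comparison, or the gene of smallest p where none was called (47 results), 598 of 713 alternative values kept their direction and call, 104 lost the call, 5, all of Col6a3 at 1 hr, gained it and these 6 turned. Among all collagen and laminin genes not called, 70 of 3813 alternative values gained a call, 12 with LTP at 1 hr (3 genes), 21 with LTP at 3 hr (9 genes), 23 with time in controls (11), 11 with time in LTP slices (6) and 3 in the interaction (2). The share of all genes called moved too, from 1.28% to 12.2% with LTP at 3 hr and from 21.9% to 31.9% with time in controls when a library was left out. With the offsets it was 24.9% with time in controls and 27% with time in LTP slices. Where a count is given without such a share, its change cannot be told apart from a change over all genes. Causes beyond fewer samples or the offsets themselves were not tested. Genes at or near the floor of 3 counts, such as Col17a1, Col24a1 and Col28a1, could not be compared with precision.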

Other observations

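Genes whose levels ran most like those of Col6a3 over the 12 libraries were listed by Pearson correlation of log2(CPM + 0.1), among genes averaging 1 CPM or more, after the Col6a3 values had been seen. Among the 10 first were Arhgap6, Zic1, Ano2, Zic4, Zfhx3, Ano1, Tcerg1l, Ret and Col23a1, with r from 0.958 to 0.925, and since 2 libraries carry these values the correlations only describe them. Zic1, a zinc finger transcription factor of midline brain regions, had 31.6 and 33.7 CPM in 1 hr LTP replicates 1 and 2, 1.83 in replicate 3 and 7.21 in 3 hr LTP replicate 2, with 1.78 to 3.09 in all others. Zic4 had 5.08 and 5.14 CPM in 1 hr LTP replicates 1 and 2 and at most 0.967 elsewhere. These genes were in no list fixed for the tissue, and whether the 2 libraries hold tissue that the others lack was not tested.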
